A study of Mus musculus with 3 samples.

Results

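Inner root sheath (IRS) cells line the channel in which a growing hair is moulded. The sheath lies between the hair shaft and the outer root sheath, is made by the dividing matrix of the hair bulb during the growth phase, and hardens before the shaft does. Its cells build filaments from a keratin set of their own, in which type I keratins (*Krt25*, *Krt27* and *Krt28*) pair with type II keratins (*Krt71* and *Krt73*), and embed them in trichohyalin, a matrix protein that deiminases modify and transglutaminases cross-link. In alopecia areata (AA), an autoimmune hair loss, lymphocytes gather around the bulb of growing follicles, where this sheath is formed.

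A total of 884 IRS cells were found among 26847 kept cells of 3 single-cell RNA libraries. A barcode was kept with mitochondrial UMIs (unique molecular identifiers, each standing for 1 captured transcript) of at most 10% and at least 200 genes. A kept cell was called IRS when each of at least 3 of the 5 keratins *Krt25*, *Krt27*, *Krt28*, *Krt71* and *Krt73* had at least 3 UMIs, when *Krt71* and *Krt73* together had more UMIs than the hair shaft keratin *Krt35*, and when the leukocyte gene *Ptprc* had none. The cells were thus selected on measured values, and the levels of these 7 genes describe the selection and are not a result. Each library was made from pooled dorsal skin of 7 to 8 female C3H/HeN mice aged 25 weeks. Neg mice were vehicle controls, AA mice carried the disease made by transfer of expanded lymph node cells of affected donors, and AA+Ab mice were AA mice given a neutralizing antibody to the chemokine CXCL12, at a dose that the sources used here do not state. The droplet protocol counts transcripts from their 3′ ends, 1 UMI per transcript, so levels of different genes were compared without scaling to length.

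The libraries held 6965 barcodes with 121289374 UMIs in Neg, 10879 with 137290217 in AA and 10507 with 141998364 in AA+Ab, of which 6582, 10433 and 9832 barcodes were kept. Pairs of libraries shared 17 to 28 barcodes, and no shared barcode was an IRS cell in both libraries. Each group is 1 library, so there are no replicates, and differences between mice or pools cannot be measured. Levels are UMIs of a gene summed over the IRS cells of a library per 1000000 UMIs of the same cells (CPM). The 95% intervals are exact (Poisson for levels, Clopper-Pearson for shares, conditional binomial for ratios of CPM) and cover counting error only. Likely doublets, droplets that hold more than 1 cell, were scored and left in, and results that change without them are given with that value.

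The rule asks for a minimum of UMIs and so favours deep cells. The median of IRS cells was 29222 UMIs in Neg, 23764 in AA and 25488 in AA+Ab, against 13545, 11272 and 11528 in all other kept cells without *Ptprc*. They carried 5600, 5166 and 5164 genes at the median. Mitochondrial UMIs took a median of 3.18%, 2.93% and 2.15% in them and 2.3%, 2.16% and 1.81% in the other cells. Scored doublets made up 14.6% of IRS cells in Neg (50 cells), 8.89% in AA (24) and 8.46% in AA+Ab (23), against 5.58%, 8.70% and 8.40% of all kept cells.

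*Krt71* and *Krt25* were the most abundant keratins of the rule, *Krt71* with 1565 CPM in Neg, 1645 in AA and 1166 in AA+Ab and *Krt25* with 1384, 1578 and 1189 CPM. *Krt28* had 600.0, 680.1 and 750.8 CPM. *Krt27* was lower, with 134, 152 and 160.0 CPM. *Krt73*, a keratin of the sheath cuticle, had 129.9, 178 and 226 CPM but lay in few cells: 84 IRS cells in Neg, 61 in AA and 56 in AA+Ab had a UMI of it. The most frequent combination with at least 3 UMIs was *Krt25*, *Krt28* and *Krt71*, in 120, 114 and 102 cells, and all 5 keratins reached 3 UMIs in 30, 24 and 22 cells. Of the sheath keratins outside the rule, *Krt26* had 3.34, 2.003 and 1.87 CPM and *Krt72* had 0.571, 0.715 and 0.534 CPM, so these cuticle keratins were near the limit of detection, and their sum of 3.91, 2.72 and 2.40 CPM had a log2 ratio of AA to Neg of -0.53 (-1.37 to 0.27) that became 0.35 after thinning. All other kept cells without *Ptprc* had 2.25, 1.75 and 3.29 CPM of *Krt26*. *Krt74* was not analysed here.

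The threshold divides a continuum. The third keratin had exactly 3 UMIs in 57 Neg, 55 AA and 48 AA+Ab IRS cells, and exactly 2 in 81, 63 and 71 cells just outside. A further 250, 233 and 399 cells met the keratin count but not the condition on *Krt35*, most of them (213, 220 and 370) with no UMI of *Krt71* or *Krt73*. Of the latter, 141, 159 and 222 had no UMI of *Krt35* either, so they failed the condition without any *Krt35*. In those outside cells *Krt25* had 502, 585 and 563 CPM and *Krt35* had 214, 60.4 and 161 CPM, against 35.9, 3.72 and 26.2 CPM of *Krt35* in IRS cells. Genes that the rule did not use also differed across it. *Gata3*, a transcription factor needed to specify the sheath, had 310, 294 and 283 CPM in IRS cells and 135, 102 and 90.8 CPM in the outside cells. *Lef1*, the Wnt effector of matrix and cortex, had 203, 246 and 186 CPM inside and 502, 651 and 519 CPM outside, and *Shh*, a signal made by matrix cells, 8.88, 7.87 and 14.2 CPM inside and 36.5, 69.0 and 58.3 CPM outside.

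Sheath transcripts were also counted in cells that should lack them, and the source of these UMIs was not tested. *Krt71* was found in 95.6%, 95.9% and 97.1% of IRS cells and in 12.6%, 4.25% and 6.60% of T cells, which had median depths of 5547, 4568 and 4657 UMIs. After random thinning of each cell to a depth of 2000 UMIs, for which 1 AA IRS cell and 10, 31 and 17 T cells of Neg, AA and AA+Ab were too shallow, these shares were 51.5%, 59.5% and 49.6% of IRS cells and 6.99%, 1.36% and 2.39% of T cells. *Gata3*, which T cells make too, was in 97.1%, 94.4% and 94.5% of IRS cells, or 40.1%, 42.0% and 34.9% after thinning, and in 17.5%, 27.6% and 23.3% of thinned T cells.

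Beyond the rule, IRS cells shared a set of genes that stood high over all other *Ptprc*-negative cells in each library. Ratios against other cells have 5 CPM added to both levels. The 15 genes with the highest smallest ratio were *Cdh6*, *Slc30a1*, *Ctsc*, *Plekhg1*, *Csrp2*, *Gm12446*, *Mgst1*, *Sulf2*, *Prr9*, *Foxe1*, *Cacng4*, *Fbp1*, *Gjb2*, *Calhm5* and *Tmtc1*, and their ratios ran from 3.46 to 7.74. *Cdh6*, a cadherin, had 269, 247 and 307 CPM in IRS cells of Neg, AA and AA+Ab against 48.8, 42.5 and 48.6 CPM in the others. The zinc exporter gene *Slc30a1* had 202, 258 and 244 CPM against 40.7, 30.6 and 41.1. *Ctsc*, which encodes the lysosomal protease cathepsin C, had 160.0, 157 and 132 CPM against 25.9, 31.9 and 26.3. *Gjb2*, the gap junction gene of connexin 26, had 281, 324 and 313 CPM against 75.4, 53.7 and 69.2. *Prr9*, a proline-rich gene in the epidermal differentiation complex, had 33.3, 34.9 and 16.3 CPM against 0.443, 0.154 and 0.389, and 22, 25 and 18 IRS cells held it. A set of cells chosen by keratins and set against the remainder is a description, not a test.

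Regulators of the sheath showed both shared and common genes. *Cux1*, a homeodomain repressor active in the sheath, was the most abundant of 17 regulators listed, with 1374, 1778 and 1354 CPM against 397, 344.5 and 344 CPM in the other cells. *Foxn1*, the nude gene, had 23.6, 24.5 and 22.7 CPM against 6.92, 4.69 and 4.72, and *Msx2* had 93.3, 115 and 124 CPM against 48.8, 40.0 and 57.7. Cells that met the keratin count but not the *Krt35* condition had more *Msx2* than IRS cells, 143, 143 and 172 CPM. *Gata3* was not much above the rest, with ratios of 1.08 to 1.29, and many other skin cells make it too. The basal keratins were low, *Krt14* with 1105, 546 and 432 CPM against 5567, 7115 and 5921, and *Krt5* with 800, 539 and 526 CPM against 3034, 3277 and 2975.

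The rule keratin genes lie in the keratin clusters of the genome (GRCm38): *Krt25* on chromosome 11 at 99315516 to 99322951, *Krt27* at 99345565 to 99351104, *Krt28* at 99364872 to 99374903, *Krt71* on chromosome 15 at 101733949 to 101743109 and *Krt73* at 101793308 to 101802346, all on the minus strand. Their promoters are shown because the 5 genes define the cells. RefSeq promoters (GRCm38.p6, 250 bases before the start) were matched for 14 of 17 genes searched with 9 motifs on both strands. The GATA-type hexamers were AGATAA (9.99% of 32851 promoters), AGATAG (7.71%), TGATAA (7.94%) and TGATAG (6.35%). The LEF-type motifs were CTTTGAA (4.46%) and CTTTGTT (5.03%), and the STAT and interferon-type motifs were TTCNNNGAA (7.02%), TTCNNGGAA (4.06%, each match also a match of the former) and GAAA, any 2 bases, GAAA (2.98%). AGATAA was found in 4 of the 5 rule keratins and in *Tchh* and *Irf9*, TGATAA in *Krt27*, and CTTTGTT and TTCNNNGAA in *Krt25*. The other motifs were found in none of the 5. Capitals mark AGATAA, chosen after the matches were seen, at 194, 183, 225 and 182 bases before the start of *Krt25*, *Krt27*, *Krt71* and *Krt73*. The windows are chr11:99322952-99323201, chr11:99351119-99351368, chr11:99374904-99375153, chr15:101743098-101743347 and chr15:101802361-101802610, minus strand, written 5′ to 3′, and the matches are a description of letters.
Krt25: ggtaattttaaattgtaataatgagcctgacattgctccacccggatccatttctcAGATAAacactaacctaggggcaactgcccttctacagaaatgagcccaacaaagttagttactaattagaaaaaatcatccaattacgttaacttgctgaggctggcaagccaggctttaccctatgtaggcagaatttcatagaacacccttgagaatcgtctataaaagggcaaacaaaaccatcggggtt
Krt27: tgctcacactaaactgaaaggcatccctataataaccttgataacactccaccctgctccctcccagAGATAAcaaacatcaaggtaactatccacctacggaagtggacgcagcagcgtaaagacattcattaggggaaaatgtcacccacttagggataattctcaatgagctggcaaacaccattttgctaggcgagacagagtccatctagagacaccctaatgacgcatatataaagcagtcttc
Krt28: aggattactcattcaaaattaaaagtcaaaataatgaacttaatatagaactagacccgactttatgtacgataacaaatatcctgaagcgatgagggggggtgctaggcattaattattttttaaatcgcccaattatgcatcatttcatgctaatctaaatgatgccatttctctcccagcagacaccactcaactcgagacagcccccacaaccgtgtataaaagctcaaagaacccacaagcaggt
Krt71: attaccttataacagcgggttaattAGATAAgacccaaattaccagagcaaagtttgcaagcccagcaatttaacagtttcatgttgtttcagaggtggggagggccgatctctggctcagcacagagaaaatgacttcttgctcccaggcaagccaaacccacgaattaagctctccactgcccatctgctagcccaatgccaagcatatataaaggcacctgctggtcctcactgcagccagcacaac
Krt73: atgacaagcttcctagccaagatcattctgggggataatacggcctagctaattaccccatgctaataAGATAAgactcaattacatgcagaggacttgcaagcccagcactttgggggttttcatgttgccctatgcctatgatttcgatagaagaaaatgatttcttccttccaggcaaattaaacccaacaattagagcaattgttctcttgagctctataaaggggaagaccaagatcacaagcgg

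Cells that met the rule differed in how much of their RNA was sheath keratin. The 5 keratins took a median of 0.203% of a cell's UMIs in Neg, 0.239% in AA and 0.227% in AA+Ab, with a range of 0.01935% to 5.75% over all IRS cells. The 884 cells were ranked by this share and divided at 0.141% and 0.365% into 3 tiers of near equal size, which hold 126, 114 and 102 Neg cells from bottom to top, 78, 91 and 101 AA cells, and 91, 89 and 92 AA+Ab cells. Of 8782 genes that reached 50 UMIs in all the libraries, 115 were past 2-fold higher and 161 past 2-fold lower in the top than in the bottom tier of all 3 libraries (after adding 5 CPM). The keratins themselves follow from the ranking, *Krt71* going from 109 to 4655 CPM in Neg, 156 to 4388 in AA and 109 to 3246 in AA+Ab. The bottom tier had 797, 957 and 932 CPM of the 5 keratins in Neg, AA and AA+Ab. The cells that met the keratin count but not the *Krt35* condition had 1004, 1174 and 1135 CPM. *Gata3* in the bottom tier, at 233, 169 and 165 CPM, was above those cells (135, 102 and 90.8) and below all other *Ptprc*-negative cells (285, 243 and 217.5). The name IRS thus rests on the rule for the bottom tier.

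Among the genes that went up with the keratins were *Ctsc*, from 33.4 to 392 CPM in Neg, 36.6 to 361 in AA and 35.4 to 266 in AA+Ab, and *Prr9*, from 0.183 to 106 CPM in Neg, 0 to 100.2 in AA and 0.334 to 54.8 in AA+Ab. The other named genes at the top were *Fbp1*, *Nkd2*, *Cited4*, *Sema6a* and *Wdr47*. Sheath regulators went either way along this axis. *Hoxc13* went from 37.8 to 31.7 CPM in Neg, 42.4 to 10.7 in AA and 54.4 to 24.9 in AA+Ab, and *Vdr* from 64.4 to 26.1, 41.1 to 27.6 and 41.4 to 15.7 CPM. *Gata3* went from 233 to 441 CPM in Neg, 169 to 449 in AA and 165 to 449 in AA+Ab, and *Foxn1* from 6.61 to 48.3, 8.72 to 47.6 and 5.34 to 43.8 CPM. *Notch3*, a receptor of the Notch pathway that guides sheath differentiation, went from 13.2 to 60.9, 12.9 to 61.0 and 8.68 to 60.8 CPM, while its ligand gene *Jag2* went the other way, from 74.5 to 10.4, 65.6 to 11.6 and 58.8 to 6.45 CPM. The desmosome gene *Dsc1*, an adhesion cadherin of late keratinocytes, went from 2.75 to 34.0, 2.08 to 51.2 and 2.34 to 59.9 CPM.

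The 10 genes that went down most were *Ntn1*, *Adamts9*, *Lbh*, *Ckb*, *Cxcl14*, *Dcn*, *Mt2*, *Chst11*, *Lgr5* and *Sema5a*. *Ntn1*, the guidance cue netrin-1, went from 75.1 to 1.97 CPM in Neg, 93.9 to 7.12 in AA and 77.1 to 4.61 in AA+Ab. *Lgr5*, a Wnt co-receptor gene of follicle progenitors, went from 96.7 to 17.1, 118 to 15.6 and 63.1 to 7.83 CPM, and the chemokine gene *Cxcl14* from 269 to 25.8, 209 to 37.0 and 260.5 to 36.9 CPM. *Lef1* moved less, from 227 to 157, 305 to 168 and 245 to 140.5 CPM. The epidermal gene *Krt10* had 665, 65.4 and 63.7 CPM from bottom to top in Neg, where 1 cell held 32.0% of its UMIs, and changed less in AA, with 194, 51.8 and 127 CPM, and in AA+Ab, with 109, 94.2 and 84.3. Median depth went down along the axis too, from 36494 to 26468 UMIs in Neg, 28583 to 19297 in AA and 31732 to 19862 in AA+Ab, and its part in these differences was not tested.

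Division genes stayed on through the ranking. A list of 13 S phase genes summed to 1375, 1518 and 856 CPM from bottom to top in Neg, 1385, 1505 and 1088 in AA and 1423, 1901 and 1105 in AA+Ab, lowest at the top in each library. The 14 G2/M genes summed to 2496, 2649 and 2603 CPM in the top tiers of Neg, AA and AA+Ab and to 2932, 3427 and 4283 in the bottom tiers. *Mki67*, made by dividing cells, was in 91.8%, 91.1% and 91.9% of IRS cells, or 50.3%, 53.9% and 51.8% after thinning, against 3.49%, 7.32% and 10.3% of thinned T cells. High division genes were not particular to IRS cells. In the cells that met the keratin count but not the *Krt35* condition the G2/M genes summed to 3157, 3315 and 3424 CPM, against 2835, 3094 and 3444 in all IRS cells. Their S phase genes summed to 1288, 1296 and 1436 CPM, against 1263, 1330 and 1479.

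**Figure D1:**
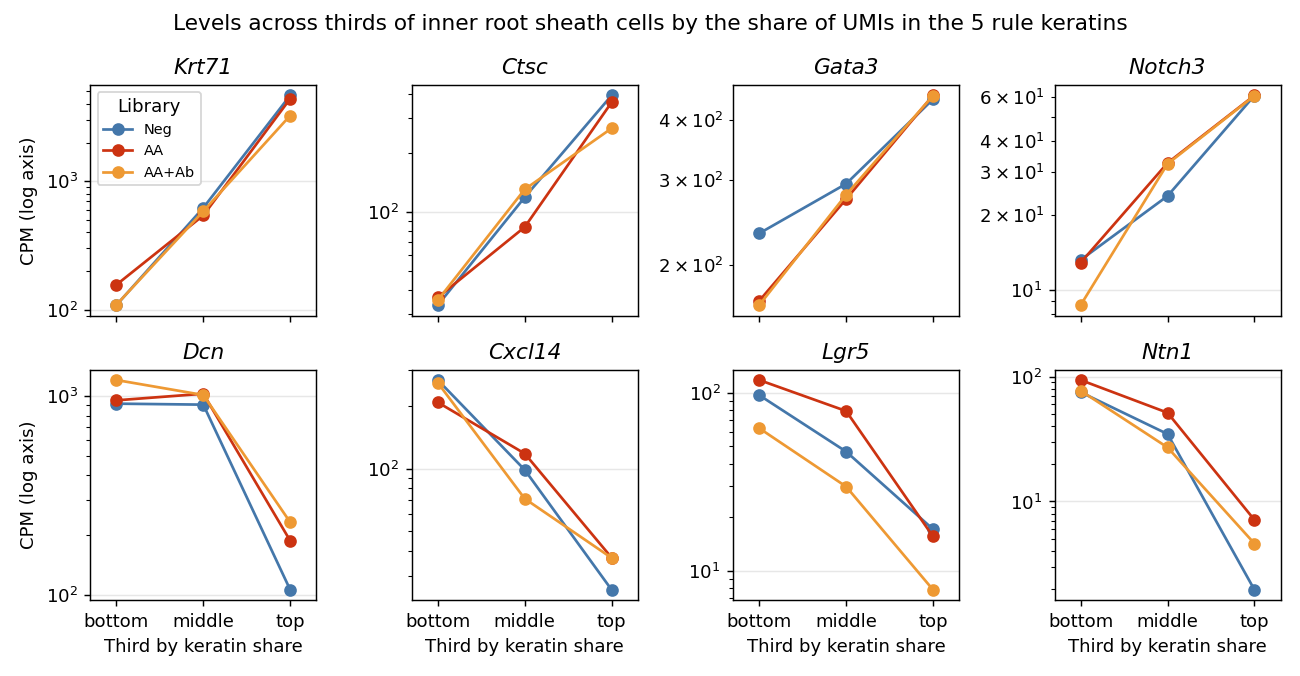
Level of 8 genes (CPM, log axis) in the bottom, middle and top tier of IRS cells by keratin share, 1 line per library. *Krt71*, *Ctsc*, *Gata3* and *Notch3* go up and *Dcn*, *Cxcl14*, *Lgr5* and *Ntn1* end lower at the top in the 3 libraries.

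*Tchh*, which encodes trichohyalin (chromosome 3, 93442330 to 93449077), was made in bulk by few cells. At least 10 UMIs of it were found in 16 IRS cells in Neg, 10 in AA and 6 in AA+Ab, and of these 11, 6 and 5 also had at least 10 UMIs of *Krt73*. Cells with both had 533, 630.2 and 797 CPM of *Gata3*, and cells with *Krt73* and not *Tchh* had 701, 609.7 and 571 CPM. The latter (26, 27 and 30 cells) had the most *Prr9*, 325, 306.5 and 124 CPM, apart from AA+Ab, where the 5 cells with both had 217 CPM. The 300, 233 and 236 cells with neither had 272, 253 and 243 CPM of *Gata3* and 487, 624 and 584 CPM of *Mki67*. *Mki67* was lower in cells with both, with 125, 221 and 528 CPM. Cells with *Krt73* and not *Tchh* had 258, 584 and 418 CPM of it.

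The share of IRS cells differed between the groups. In Neg they were 342 of 6582 kept cells, 5.196% (4.67 to 5.76), in AA 270 of 10433, 2.59% (2.29 to 2.91), and in AA+Ab 272 of 9832, 2.77% (2.45 to 3.11). The intervals of AA and AA+Ab overlapped, which depends on the *Krt35* condition: without it the shares were 8.99%, 4.82% and 6.83%, with AA+Ab between the others. The sheath exists only in growing follicles, the labels give no hair-cycle stage, and a difference in stage between the pools and a difference made by the disease or the antibody cannot be told apart. The rule also asks for a minimum of UMIs, and kept cells had a median of 13694 UMIs in Neg, 11177 in AA and 11371 in AA+Ab. The share was not computed at equal depth, so the part of depth in it was not tested.

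The comparison of AA with Neg asks how IRS cells of diseased skin differ from those of control skin. Both interferon response lists (gamma and type I) were higher in AA with no member past 2-fold, and the epidermal and pigment lists were lower with members past it. The interferon gamma response list had 65.0 CPM in Neg and 100.3 in AA, a ratio of 1.54 (1.39 to 1.71). Of 11166 genes with at least 50 UMIs in both libraries together, 3 (0.0269%) were past 2-fold higher in AA and 42 (0.376%) past 2-fold lower, with 5 CPM added to both levels, and such genes are termed called. After thinning, as many genes were called higher as lower. With so few genes called over all, a list without a called member says little about that list. The median log2 ratio of all these genes was 0.03.

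The interferon-response genes *Irf9* and *Bst2* were among the 10 highest. *Irf9*, a transcription factor of type I interferon signalling, had 5.54 CPM in Neg, 13.9 in AA and 3.47 in AA+Ab, and *Bst2*, which encodes the antiviral protein tetherin, 5.62, 14.3 and 5.74 CPM. Their ratios of AA to Neg were 2.50 (1.82 to 3.47) and 2.54 (1.85 to 3.51), and neither reached 2-fold after adding 5 CPM.

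Most members of the interferon gamma list were rare in IRS cells. Of 25 genes 12 reached 10 UMIs in a library, 9, 6 and 8 were at 0 in Neg, AA and AA+Ab, and *Gbp5*, *Gbp8*, *Tgtp1* and *Tgtp2*, which encode interferon-induced GTPases, had no UMI in any library. Of 4 members with enough UMIs none was called in AA against Neg, and their median log2 ratio was 0.21. *Iigp1*, another such GTPase gene, had 0 UMIs in Neg, 26 in AA and 1 in AA+Ab, all of the AA UMIs in 6 cells and 65.4% of them in 1 cell. *Igtp* had 7, 16 and 4 UMIs and *Irgm2* 4, 14 and 0. The type I interferon list, with 15 of its 17 genes in the gene list, had 18.7 CPM in Neg, 39.6 in AA and 17.8 in AA+Ab, a ratio of AA to Neg of 2.12 (1.78 to 2.54), with none of 3 members called.

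The interferon ratio was not even along the keratin ranking. The interferon gamma list had 76.3, 69.4 and 43.5 CPM from bottom to top in Neg and 98.5, 86.1 and 117 CPM in AA, so the ratio was 1.29 (1.10 to 1.52) at the bottom, 1.24 (1.02 to 1.51) in the middle and 2.69 (2.20 to 3.30) at the top. The tier with the highest keratin share thus had the lowest level in Neg and the highest in AA. The type I list had ratios of 2.61 (1.95 to 3.48), 1.12 (0.786 to 1.59) and 2.88 (2.08 to 4.02). Other lists were also higher in AA at the top, with ratios of 1.71 (1.497 to 1.95) for the suprabasal list, 1.74 (1.51 to 1.998) for fibroblast markers and 1.85 (1.54 to 2.23) for stress keratins and alarmins, and their part in the result was not tested. For the whole of the IRS cells the interferon gamma ratio was smaller than in the other kept *Ptprc*-negative cells, where it was 2.36 (2.32 to 2.40), or in the cells that met the keratin count but not the *Krt35* condition, 2.11 (1.90 to 2.35).

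MHC class I presentation genes, which show peptides to CD8 T cells, had sums that differed little between Neg and AA while the tiers differed. The 16 genes summed to 872 CPM in Neg, 912 in AA and 601 in AA+Ab, against 3224, 4277 and 3490.0 CPM in all other *Ptprc*-negative cells and 4820, 5643 and 5227 in basal keratinocytes. A low level is not particular to IRS cells, as the cells that met the keratin count but not the *Krt35* condition had 750.1, 891 and 676 CPM. *H2-K1* had 210.1, 219 and 128 CPM and *B2m* 184, 198 and 128 CPM in IRS cells. None of 15 members was called, the median log2 ratio was 0.05, and the summed ratio of AA to Neg was 1.05 (1.01 to 1.08). Its log2 value of 0.07 was 0.44 with doublets removed, 0.37 as a mean of per-cell CPM and 0.46 after thinning. By tiers it was 0.826 (0.788 to 0.865) at the bottom, 1.10 (1.03 to 1.18) in the middle and 1.90 (1.79 to 2.02) at the top, where Neg had 532 CPM and AA 1011.

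Receptors and signal carriers of the pathway were measured as well. *Ifngr1*, a chain of the interferon gamma receptor, had 49.4, 43.2 and 43.7 CPM in IRS cells. Over 14 receptor and JAK-STAT genes the sum was 368, 327 and 230 CPM, a log2 ratio of AA to Neg of -0.17 that became 0.02 with doublets removed and 0.01 as a mean of per-cell CPM, with none of 13 members called and a median of -0.17. By tiers the ratio of AA to Neg was 0.723 (0.669 to 0.782), 1.02 (0.921 to 1.12) and 1.26 (1.14 to 1.39), and the log2 ratio of AA+Ab to Neg over all tiers was -0.68.

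Regulators summed to 2824 CPM in Neg and 3294 in AA, a log2 ratio of 0.22 (0.20 to 0.25) with a median of 0.04, and none of 17 was called. The largest share was *Cux1*, with a ratio of 1.29 (1.26 to 1.32). Follicle signalling genes (Notch, BMP and hedgehog) had 2140 and 2261 CPM, with none of 16 called and a median of -0.06. The hedgehog receptor and target gene *Ptch1* had 118 and 158 CPM, and the Notch target *Hes1* 209 and 149. The *Lpar6* and *Egfr* growth pathway list had 356 and 434 CPM, with none of 6 called and a median of -0.01. Its sum was led by *Egfr*, the receptor of epidermal growth factor ligands, with 285 and 363 CPM. Desmosome genes had 2271 and 2253 CPM, none of 12 called, with a median of -0.03 and a log2 ratio of -0.01 that became 0.15 as a mean of per-cell CPM and 0.21 after thinning, with ratios of 0.841 (0.810 to 0.873), 0.938 (0.902 to 0.975) and 1.07 (1.04 to 1.10) by tiers. The keratins of the rule, which select the cells, summed to 3813, 4234 and 3492 CPM in the 3 libraries.

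Cornification genes of the sheath summed to 543 CPM in Neg, 406 in AA and 336 in AA+Ab, where 19 of 23 genes reached 10 UMIs. All other *Ptprc*-negative cells had more, 1012, 881 and 1284 CPM, and were highest in AA+Ab. Suprabasal keratinocytes had 1953, 1754 and 2503 CPM. In IRS cells the log2 ratio of AA to Neg was -0.42 (-0.49 to -0.36), and -0.05 as a mean of per-cell CPM. By tiers the ratio was 0.479 (0.434 to 0.528) at the bottom, 0.826 (0.7365 to 0.926) in the middle and 0.839 (0.793 to 0.888) at the top. Of 13 members 1 was called, lower, the metallothionein gene *Mt4* with 95.8, 21.5 and 36.9 CPM, and the median was -0.08. *Tchh* had 196 CPM in Neg and 160 in AA, with 20.4% and 31.0% of its UMIs in 1 cell each, and its log2 ratio of -0.30 became 0.09 at a mitochondrial limit of 5%, 0.04 as a mean of per-cell CPM and 0.10 after thinning. *Tgm3*, a transglutaminase, had 10.8, 9.73 and 12.95 CPM in Neg, AA and AA+Ab, against 10.9, 18.5 and 18.3 CPM in all other *Ptprc*-negative cells. *Padi3*, a deiminase, had 8.15, 8.01 and 4.14 CPM against 7.81, 7.785 and 11.55. Neither was much above the other cells in any library.

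Of the 3 genes called higher in AA, only *Gm42047* kept its direction, with 4.08 CPM in Neg, 20.5 in AA and 8.68 in AA+Ab and log2 ratios of 2.18 to 2.58 over the alternatives. *Slpi* (3.02, 16.0 and 22.03 CPM) had 52.7% of its AA UMIs in 1 cell and a log2 ratio of -2.95 when each keratin needed at least 5 UMIs. *Nrg1*, a ligand of ERBB receptors, had 7.99, 27.3 and 2.40 CPM and a log2 ratio of -0.76 with doublets removed. Also among the 10 highest were *Ptprt* (6.68, 17.3 and 7.61 CPM, with a log2 ratio of -0.88 after thinning), *Sprr1a* (6.11, 15.5 and 4.94 CPM, -0.65 with doublets removed), *Mgp* (90.3, 166 and 93.9 CPM) and *Sytl2* (21.1, 41.4 and 26.4 CPM).

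The lower end in AA held epidermal and pigment genes, *Mt4* of the cornification list and *Krt35*, which the rule holds down. The 10 lowest were *Krt77*, *Krtdap*, *Krt35*, *Krt79*, *Mt4*, *Ly6g6c*, *Mlana*, *Ccl20*, *Fam25c* and *Dapl1*. The suprabasal epidermal gene *Krt77* had 109.5 CPM in Neg, 15.7 in AA and 15.8 in AA+Ab, and *Krtdap*, also of differentiating epidermis, 203, 39.1 and 41.3. In Neg 1 cell held 45.8% of the *Krt77* UMIs, 38.2% of those of *Krtdap* and 32.0% of those of *Krt10*, and the Krt77 log2 ratio AA/Neg of -2.80 was -2.38 without the top cell of each library. The suprabasal list summed to 588, 201 and 157 CPM (3 of 5 members called lower, median -1.34, *Krt10* most abundant with 331, 125 and 97.3 CPM, *Flg* at 0 in Neg and AA), and its part in the result was not tested. Its log2 ratio of AA to Neg was -1.55 (-1.63 to -1.46), or -2.57 with doublets removed, and the direction turned at the top, with 1180.0 CPM in Neg and 317 in AA at the bottom, 104 and 72.4 in the middle and 124 and 212 at the top.

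The summed outer sheath and pigment lists were lower in AA too. The companion layer and outer sheath keratins summed to 2676, 1499 and 1393 CPM, a log2 ratio of -0.84 (-0.87 to -0.80), or -0.33 with doublets removed, with *Krt14* and *Krt15* called lower of 7 members, a median of -0.57, and *Krt6b* at 0 in Neg and AA. By tiers the ratio was 0.439 (0.425 to 0.453), 0.798 (0.765 to 0.834) and 1.04 (0.991 to 1.09), with no drop at the top. The log2 ratio of *Krt14* was -1.02, and -0.40 with doublets removed. The 4 melanocyte genes were each called lower, with a median of -1.28. They summed to 115, 32.1 and 63.4 CPM, led by *Dct* with 48.7, 15.9 and 29.1, and in Neg 30.4% to 38.7% of the UMIs of each lay in 1 cell. The log2 ratio of the list was -1.85 (-2.06 to -1.64), and -1.33 without the top cell of each gene. Its ratios by tiers were 0.285 (0.219 to 0.366), 0.173 (0.136 to 0.217) and 0.602 (0.452 to 0.795). The part of melanocytes and their RNA was not tested.

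*Krt35* is held down by the rule, so its place among these genes is a description of the selection, and 41.5% of its Neg UMIs lay in 1 cell. The 14 hair shaft keratins measured summed to 41.4, 5.87 and 31.1 CPM, most of it *Krt35*, with 4 of them reaching 10 UMIs. *Krt79* had 65.0% of its Neg UMIs in 1 cell (log2 ratio -3.10, and -1.90 without it), and *Ccl20* had 93.9% (Ccl20 log2 ratio AA/Neg -3.97, and -1.51 without it, or 0.07 with doublets removed).

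**Figure D2:**
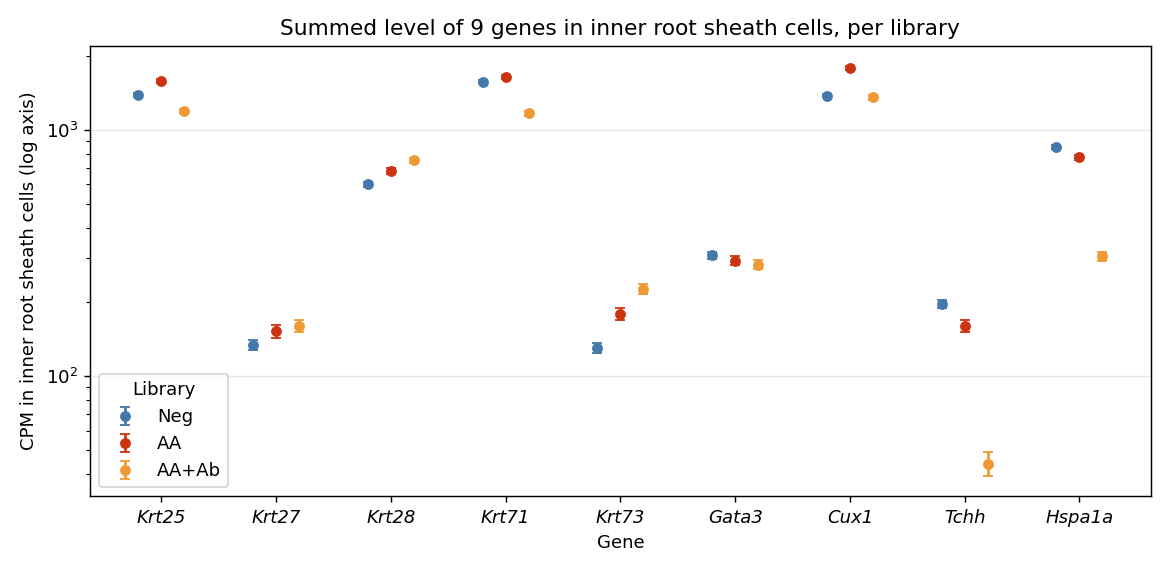
Level of 9 genes (CPM, log axis) in IRS cells of Neg, AA and AA+Ab, as points with 95% Poisson intervals. *Tchh* and *Hspa1a* are lowest in AA+Ab, *Cux1* is highest in AA, and *Gata3* lies between 283 and 310 CPM in the 3 libraries.

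The comparison of AA+Ab with AA asks what differs in IRS cells when AA mice received the antibody. *Tchh* was lower in AA+Ab than in AA, and so were the sums of the interferon, MHC class I and dissociation lists, with few members called. *Tchh* had 160 CPM in AA and 43.9 in AA+Ab, a ratio of 0.275 (0.242 to 0.311), while all other *Ptprc*-negative cells had 58.96 and 96.1 CPM, so that it was lower in IRS cells than outside them in AA+Ab. *Hspa1a*, a gene of the stress-induced chaperone HSP70, had 772 and 306 CPM, a ratio of 0.396 (0.377 to 0.416). Of 10483 genes tested, 16 (0.153%) were called higher in AA+Ab and 39 (0.372%) lower, and the median log2 ratio of all was -0.06. Here too few genes were called over all, so a list without a called member says little about that list. This comparison shares the AA library with the former.

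The loss of *Tchh* UMIs lay in the top tier, where Neg had 620.4 CPM, AA 478 and AA+Ab 61.3, while the middle tier had 21.5, 7.71 and 70.6 CPM. In AA+Ab 39.8% of the UMIs came from 1 cell. The log2 ratio of AA+Ab to AA was -1.86, and it ran from -1.32 as a mean of per-cell CPM to -2.06 with the top cell left out. The share of IRS cells with a UMI of *Tchh* was 23.4%, 19.6% and 16.9%, and 7.02%, 5.58% and 2.94% after thinning, against 1.31%, 0.813% and 1.86% of thinned T cells. Thinned basal keratinocytes held it in 2.4%, 2.84% and 3.33%, so in AA+Ab the share of IRS cells was not above theirs. The cornification list had a log2 ratio of -0.27 (-0.35 to -0.19), with 1 of 10 members called lower (*Tchh*) and 1 higher, and a median of 0.08. By tiers its ratio was 1.24 (1.11 to 1.39), 1.49 (1.32 to 1.67) and 0.577 (0.535 to 0.623). The higher member was *S100a3*, a calcium-binding protein gene of hair cuticle, with 13.2, 12.2 and 41.7 CPM and 55.4% of the AA+Ab UMIs in 1 cell, its log2 ratio going from 1.78 to 0.81 without that cell.

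Regulators went from 3294 to 2658 CPM, a log2 ratio of -0.31 (-0.34 to -0.28), with 1 of 16 called higher and none lower and a median of -0.17. The called member was the forkhead gene *Foxq1*, with 6.93, 9.44 and 24.0 CPM. Follicle signalling went from 2261 to 1908 CPM (-0.24, median -0.15), with 1 of 16 called lower, the Notch target *Hes5* with 5.62, 12.0 and 0.801 CPM, of which 66.7% in AA lay in 1 cell. The *Egfr* pathway list went from 434 to 299 CPM, a log2 ratio of -0.54 (-0.62 to -0.46), with none of 5 called and a median of -0.25, and *Egfr* itself from 363 to 237 CPM. Desmosome genes had a log2 ratio of -0.11 with none of 12 called and a median of -0.27.

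Both interferon lists were lower in AA+Ab than in AA. The interferon gamma list went from 100.3 to 43.5 CPM, a ratio of 0.434 (0.379 to 0.496), with 1 of 4 members called lower and a median log2 ratio of -0.74. The called member was *Irf1*, a transcription factor induced by interferon gamma, with 22.01, 27.2 and 9.21 CPM. *Nlrc5*, the activator of MHC class I genes, had 13.6, 12.7 and 5.07 CPM. By tiers the ratio was 0.414 (0.330 to 0.517) at the bottom, 0.640 (0.509 to 0.803) in the middle and 0.299 (0.229 to 0.387) at the top. The ratio was 0.468 (0.424 to 0.515) in the cells that met the keratin count but not the *Krt35* condition and 0.409 (0.381 to 0.440) in T cells. It was 0.542 (0.534 to 0.550) in all other *Ptprc*-negative cells. The type I list had a ratio of 0.448 (0.362 to 0.553) in IRS cells with none of 2 members called and a median of -0.77 (its log2 value of -1.16 was -0.52 after thinning), and 0.356 (0.345 to 0.367) in the other cells.

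MHC class I genes went from 912 to 601 CPM in IRS cells, a ratio of 0.659 (0.634 to 0.685), against 0.816 (0.813 to 0.819) in the other *Ptprc*-negative cells. A lower level was not particular to IRS cells. The ratio was 0.759 (0.734 to 0.7845) in the cells that met the keratin count but not the *Krt35* condition and 0.628 (0.613 to 0.644) in T cells. In IRS cells 1 of the 14 members was called lower, *Psmb8*, an immunoproteasome subunit gene, with 25.0, 26.2 and 9.08 CPM, and the median was -0.37. *H2-K1* had a ratio of 0.582 (0.536 to 0.631) and *B2m* 0.645 (0.593 to 0.701). By tiers the ratio of AA+Ab to AA was 0.594 (0.559 to 0.632), 0.896 (0.835 to 0.962) and 0.553 (0.515 to 0.593), and that of AA+Ab to Neg 0.491 (0.466 to 0.517), 0.988 (0.924 to 1.06) and 1.05 (0.977 to 1.13), so AA+Ab was below Neg at the bottom only. The receptor and JAK-STAT list went from 327 to 230 CPM, a log2 ratio of -0.51 with 1 of 13 called lower and a median of -0.37. That member was *Irf9*, and *Stat3* had 92.7, 76.8 and 37.9 CPM.

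The list of genes that tissue dissociation induces, early genes and chaperone genes, summed to 7929 CPM in Neg, 7879 in AA and 5385 in AA+Ab, a ratio of AA+Ab to AA of 0.684 (0.675 to 0.692) in IRS cells and 0.824 (0.822 to 0.825) in the other *Ptprc*-negative cells, while in T cells it was 1.07 (1.05 to 1.09), in the other direction. In the cells that met the keratin count but not the *Krt35* condition the ratio was 0.767 (0.759 to 0.776). In IRS cells the 3 called members of the 11 listed were the chaperone genes *Hspa1a*, *Dnajb1* (335, 312 and 135 CPM) and *Hsph1* (171, 237 and 76.1 CPM), each lower, and the median was -0.65. The early genes *Jun* (1769, 1587 and 1453 CPM) and *Fos* (746, 692 and 602 CPM) moved less. In AA against Neg none of the 11 was called, the log2 ratio was -0.01 (-0.02 to 0.01), or 0.10 with doublets removed, and the median -0.14. By tiers that ratio was 0.837 (0.823 to 0.852) at the bottom, 1.06 (1.04 to 1.08) in the middle and 1.145 (1.12 to 1.17) at the top. *Hspa1a* was in 96.5%, 94.8% and 88.2% of IRS cells, and 64.0%, 56.9% and 37.1% after thinning, against 51.9%, 45.3% and 35.3% of T cells, or 26.6%, 30.6% and 21.0% after thinning. The part of dissociation in the other differences was not tested.

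Among the 10 lowest genes in AA+Ab against AA were *Nrg1*, *Tchh*, *Sptlc3*, *Hsph1*, *Hes5*, *Ifi202b*, *Serpinb2*, *Hspb1* and *Fosl1*. *Hspb1*, a small heat-shock protein gene, had 910.1 CPM in Neg, 838 in AA and 309 in AA+Ab. *Serpinb2*, a serine protease inhibitor gene of keratinocytes, had 197, 149 and 50.9 CPM, and *Fosl1*, an AP-1 subunit gene, 85.4, 72.1 and 24.2. These 3 were lowest in AA+Ab and highest in Neg. With doublets removed the Nrg1 log2 ratio AA+Ab/AA was -0.90 in place of -3.51, of *Sptlc3* (17.9, 19.6 and 2.54 CPM) -1.71 in place of -2.95 and of *Ifi202b* (23.1, 20.03 and 3.87 CPM) -1.58 in place of -2.37.

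The 10 highest were *Krt35*, *Sostdc1*, *Crym*, *Krt79*, *Cd74*, *S100a3*, *Ptgds*, *Hoxa9*, *Krtap8-1* and *Pinlyp*, and several rest on 1 cell. *Cd74*, the MHC class II invariant chain, had 3.99, 3.86 and 21.2 CPM with 94.97% of the AA+Ab UMIs in 1 cell, and its log2 ratio of 2.46 was -1.69 without that cell. For *Krt79* the log2 ratio was 2.70, or 1.40 without the top cell, and for *Pinlyp* 1.87 or 0.39. *Krt35*, held down by the rule, had 58.7% of its AA+Ab UMIs in 1 cell. *Ptgds*, which encodes a prostaglandin D synthase, was spread over cells, with 28.9, 7.73 and 27.5 CPM in 139, 43 and 120 IRS cells and a ratio of 3.56 (2.63 to 4.90). *Hoxa9*, a position-coding homeobox gene, had 22, 4 and 64 UMIs in 14, 3 and 48 cells, a ratio of 14.9 (5.55 to 56.5). *Sostdc1*, an inhibitor of BMP and Wnt signals, had 12.6, 2.29 and 19.2 CPM, *Crym* 13.9, 8.30 and 38.2 CPM, and *Krtap8-1*, a hair shaft gene, 1.71, 2.58 and 13.0 CPM.

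**Figure D3:**
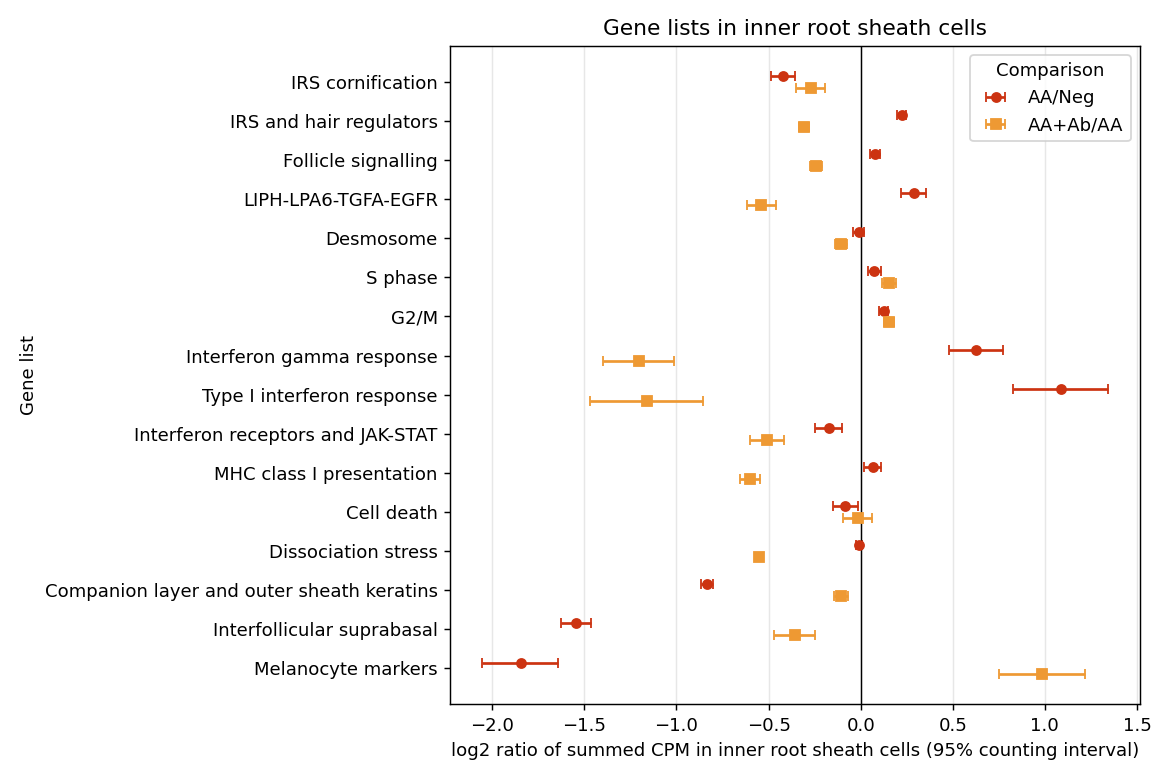
Log2 ratio of the summed CPM of 16 gene lists in IRS cells, AA/Neg (circles) and AA+Ab/AA (squares), with 95% counting intervals. The interferon gamma and type I response lists lie above 0 in AA/Neg and below 0 in AA+Ab/AA, and the dissociation list lies at -0.01 and -0.55.

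The comparison of AA+Ab with Neg asks how treated IRS cells differ from control cells, and shares a library with each of the others. Of 11167 genes 12 (0.107%) were called higher and 120 (1.07%) lower, with a median of -0.03. The interferon gamma list had a ratio of 0.670 (0.587 to 0.763) in IRS cells, and by tiers 0.534 (0.432 to 0.655), 0.794 (0.634 to 0.991) and 0.805 (0.603 to 1.07). Outside them it was 0.989 (0.887 to 1.10) in the cells that met the keratin count but not the *Krt35* condition and, in the other direction, 1.28 (1.25 to 1.30) in all other *Ptprc*-negative cells. The type I list, at a log2 ratio of -0.07 (-0.39 to 0.24), did not differ from Neg at this depth and became 0.59 after thinning. MHC class I genes had a log2 ratio of -0.54 (-0.59 to -0.49), or -0.10 after thinning, with 1 of 15 called lower and a median of -0.51, while their ratio was 1.083 (1.078 to 1.088) in all other *Ptprc*-negative cells. In the cells that met the keratin count but not the *Krt35* condition that ratio was 0.901 (0.873 to 0.930), also below Neg. The dissociation list had a log2 ratio of -0.56 (-0.57 to -0.54), with 4 of 11 called lower and a median of -0.72. Cornification had -0.69 (-0.76 to -0.63), with 1 of 13 called higher and 3 lower and a median of -0.17. Desmosome genes had -0.12, which became 0.09 as a mean of per-cell CPM and 0.13 after thinning.

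The summed division lists were highest in AA+Ab, while *Mki67* was highest in AA. The S phase list summed to 1263, 1330 and 1479 CPM and the G2/M list to 2835, 3094 and 3444 CPM. No member was called in AA against Neg (over all genes 0.0269% higher and 0.376% lower) or in AA+Ab against AA (0.153% and 0.372%). The medians were 0.12 and 0.05 for S phase and 0.07 and 0.20 for G2/M. By tiers the G2/M ratio of AA+Ab to AA was 1.25 at the bottom, 0.991 in the middle and 0.982 at the top, and the S phase ratio 1.03, 1.26 and 1.015. The log2 ratio of the S phase list in AA against Neg, 0.07, became -0.06 as a mean of per-cell CPM and -0.02 after thinning. *Top2a* had 477, 571 and 675 CPM and *Mki67* 448, 610.5 and 568 CPM.

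The 14 cell death genes summed to 390, 368 and 364 CPM, with none of 12 called in AA against Neg (over all genes 0.0269% higher and 0.376% lower) and none of 10 in AA+Ab against AA (0.153% and 0.372%), and with medians of -0.01 and 0.00, and the log2 ratio of -0.08 in AA against Neg became 0.01 after thinning. *Ripk1*, which encodes the kinase at the branch of inflammatory and death signalling, had 14.1, 17.6 and 14.0 CPM, and its ratio of AA to Neg over all tiers was 1.25 (0.982 to 1.58), not a detectable difference at this depth. The tiers went apart, with 16.7, 12.6 and 11.5 CPM from bottom to top in Neg and 12.05, 19.3 and 21.8 in AA. *Ripk3* had 6.76, 6.15 and 5.47 CPM and *Mlkl* 1.47, 1.43 and 1.47 CPM.

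Genes that guard follicle immune privilege summed to 732, 685 and 667 CPM, nearly all of it *Mif*, which encodes a cytokine that restrains natural killer cells, with 658, 608 and 604 CPM. None of 5 members was called in AA against Neg (over all genes 0.0269% higher and 0.376% lower) and none of 4 in AA+Ab against AA (0.153% and 0.372%). The medians were -0.11 and -0.17. NKG2D ligand and IL-15 genes, with 7 of the 11 listed in the gene list, summed to 16.3, 12.9 and 15.1 CPM, with log2 ratios of -0.34 (-0.72 to 0.03) and 0.23 (-0.18 to 0.64), which became 0.35 and -0.02 after thinning. Chemokine genes had 307, 209 and 208 CPM, led by *Cxcl14*, with 2 of 6 called lower in AA (*Ccl20* and *Ccl27a*) and none of 5 in AA+Ab against AA, and medians of -0.32 and -0.25. *Cxcl10*, an attractant of CXCR3 lymphocytes, had 25.8, 29.0 and 14.4 CPM. The target of the antibody was scarce in these cells: *Cxcl12* had 29, 10 and 19 UMIs, its receptor gene *Cxcr4* 4, 2 and 2, and the scavenger receptor gene *Ackr3* 18.3, 16.6 and 14.3 CPM. The 3 genes summed to 21.0, 18.3 and 17.1 CPM, with log2 ratios of -0.20 (-0.52 to 0.11) and -0.10 (-0.46 to 0.27) that became 0.26 and 0.05 with doublets removed.

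Stress keratins and alarmins summed to 161, 132 and 130.3 CPM, led by *Krt17*, and the log2 ratio of AA to Neg, -0.28, became 0.35 with at least 5 UMIs per keratin and 0.19 as a mean of per-cell CPM, the ratio being 0.596 (0.531 to 0.668) at the bottom, 1.255 (1.07 to 1.47) in the middle and 1.85 (1.54 to 2.23) at the top. None of 4 was called, with a median of 0.02, and in AA+Ab against AA 1 of 3 was called lower with a median of -0.42. MHC class II genes had 17.6, 14.9 and 47.3 CPM, and the log2 ratio of AA+Ab to AA of 1.67 became -0.51 with doublets removed and -0.19 without the top cell of each gene.

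Markers of other cell types were at very different levels in IRS cells. The 9 T cell genes summed to 12.0, 7.15 and 6.94 CPM, most of it *Trbc2* (7.91, 4.86 and 5.34), with *Cd8a* at 0 in Neg and AA+Ab. The 7 myeloid genes summed to 2.28, 2.003 and 3.74 CPM, and 19 of the 28 AA+Ab UMIs were *Cd207* in 1 cell. Both muscle genes summed to 18.3, 14.9 and 5.07 CPM, led by *Acta1* (16.1, 14.6 and 4.54), and the endothelial pair to 3.83, 8.87 and 2.40, nearly all *Pecam1*, with *Cdh5* at 0 in Neg and AA+Ab and a log2 ratio of AA+Ab to AA of -1.88 that became 0.57 after thinning. The fibroblast list had 683, 738 and 871 CPM, nearly all from *Dcn* (680.2, 734 and 866 CPM), which encodes the matrix proteoglycan decorin, while *Col1a1* had 1.63, 2.86 and 1.20 CPM. *Dcn* lay in 255, 187 and 215 IRS cells, and the log2 ratio of the list in AA against Neg, 0.11, became -0.16 with at least 5 UMIs per keratin, -0.02 as a mean of per-cell CPM and -0.09 after thinning. The sebaceous pair had 596, 582 and 657 CPM through *Mgst1*, named above as shared by IRS cells, with a log2 ratio of AA+Ab to Neg of 0.14 that became -0.08 after thinning, and *Scd1* at 57.9, 56.7 and 47.0 CPM. The part of these markers in the differences was not tested.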

How the data were processed

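The UMI counts deposited by the authors were used as raw matrices, which the submitters' processing notes credit to Cell Ranger 7.2.0 with mm10. Barcodes with at most 10% mitochondrial UMIs and at least 200 genes were kept. IRS cells and the gene lists were chosen with earlier results of these data known. Levels are CPM of summed counts, with exact 95% intervals. A gene was tested with at least 50 UMIs in the 2 libraries compared and called past 2-fold after adding 5 CPM to both. Named genes are the 10 highest and 10 lowest of AA/Neg, of AA+Ab/AA and of the top against the bottom tier, and the 15 highest against other cells. The comparisons were AA/Neg, AA+Ab/AA and AA+Ab/Neg. Alternatives changed the keratin threshold, the mitochondrial limit, doublets, the CPM total, the per-cell mean, thinning to 2000 UMIs, and the CPM added (1 or 20). Doublets were scored by nearest neighbours among 2 simulated pairs per cell in 20 components, at an assumed rate of 0.8% per 1000 barcodes, and used only to leave cells out. Python 3.11.15, numpy 2.4.6, scipy 1.17.1, pandas 2.3.3, scikit-learn 1.9.0 and matplotlib 3.10.9 were used. Hair shaft cells (5, 3 and 9) were too few to compare. Not every gene that the rule names is reported here. Protein sequences were not used here.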

Additional observations from a re-analysis of the deposited data

How the results depend on the processing

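No paired analysis was possible because each group is 1 library. Of 6391 gene values under the alternatives 5274 lay within the counting interval of the first value, 1108 moved and 9 reversed, and of 817 list values 560 did, 252 moved and 5 reversed. Reversed covers genes past 2-fold at first with 5 CPM added and lists past 2-fold without it, and means that the sign changed; among all lists whose interval left out 0, 24 of 603 values changed sign, in 13 of 67 results. Depth limits the interferon lists, of which few genes reach 50 UMIs. IRS cell share, Neg, AA and AA+Ab in turn: 6.43%, 3.19% and 3.49% with at least 2 UMIs per keratin, 3.71%, 1.69% and 1.79% with at least 5, 7.19%, 3.70% and 4.11% with at least 2 keratins, 1.96%, 0.901% and 1.12% with at least 4, and 8.99%, 4.82% and 6.83% without the *Krt35* condition, where AA+Ab lies between the others. Called genes in AA/Neg, 45, were 27 as a mean of per-cell CPM (6 higher and 21 lower), 18 thinned (9 and 9), 44 with at least 5 UMIs (9 and 35), 169 with 1 CPM added and 13 with 20. In AA+Ab/AA, 55 became 84 with at least 5 UMIs (15 and 69), 40 thinned (5 and 35), 34 with the top cell of each gene left out (6 and 28), an alternative chosen after seeing the data, 181 with 1 CPM added and 9 with 20 (1 and 8). In AA+Ab/Neg, 132 became 77 with doublets removed, 67 as a mean of per-cell CPM, 44 thinned, 344 with 1 CPM added and 37 with 20. The interferon gamma list in AA/Neg, 0.63, was 0.86 with at least 5 UMIs and 0.41 thinned, and the Interferon gamma response log2 ratio AA+Ab/AA, -1.20, was -1.51 with at least 5 UMIs. Reversed values: MHC class II AA+Ab/AA -0.51 with doublets removed and -0.19 with the top cell left out, and AA+Ab/Neg -0.56 and -0.37; endothelial markers AA+Ab/AA 0.57 thinned; Cd74 log2 ratio AA+Ab/AA -2.01 and -1.69, and AA+Ab/Neg -1.66 and -1.54; Ccl20 log2 ratio AA/Neg 0.38 with at least 5 UMIs and 0.0722 with doublets removed; *Slpi* AA/Neg -2.95 with at least 5 UMIs; *Nrg1* AA/Neg -0.76 with doublets removed; *Sostdc1* AA/Neg 0.35 thinned. For *Cd74* 1 cell holds 94.97% of the AA+Ab UMIs, and the cause of the other reversals was not tested.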
